A study of Oryctolagus cuniculus with 9 samples.

Results

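COL4A1, COL4A2, COL15A1, NID2 and HMCN1 encode extracellular proteins of basement membranes and of the matrix beside blood vessels, and these 5 genes, taken by symbol out of the 14870 genes listed, were followed across rabbit knee cartilage. Their rows were identified by gene symbol alone, without use of any measured value. RNA sequencing was available for 9 libraries collected 12 weeks after surgery, with 3 libraries in each of 3 groups. In New Zealand White rabbits aged 4 to 5 months, a full-thickness defect was drilled into the trochlear groove of both knees. The right defect received the CLCS scaffold, a porous implant of collagen and chondroitin sulfate, and gave the CLCS group, whereas the left defect was left empty and gave the untreated group. The healthy group was undamaged cartilage, which the scheme of the study takes from the condyle. Each difference from healthy cartilage is therefore also a difference in site, and the 2 cannot be told apart. The labels call both kinds of defect injured cartilage, and the 6 injured libraries were also compared jointly with the healthy ones. Neither the labels nor the methods say which rabbit gave which library, so both knees of 1 rabbit may be among the 6, which are then not 6 rabbits, and p-values measure the spread between these samples only. In whole tissue, fewer cells of a type and less RNA per cell cannot be told apart.

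A basement membrane is a thin sheet of matrix that underlies endothelium and epithelium and surrounds muscle, fat and nerve sheath cells. Its network is built of collagen IV and laminin, which nidogens and perlecan join together. Mature hyaline cartilage has no vessels, and its chondrocytes lie in a pericellular matrix that also holds some basement membrane proteins. COL4A1 and COL4A2 are the collagen IV chains found in nearly every basement membrane. COL15A1 encodes a collagen of the basement membrane zone of vessels and muscle, NID2 encodes nidogen-2, a linker between laminin and collagen IV, and HMCN1 encodes hemicentin-1, a very large fibulin-family protein of tissue junctions.

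The genes were scarce in these libraries. They held 70 to 233 reads together, which was 0.00931% to 0.0321% of the 724986 to 1226408 reads assigned to genes in a library. The cartilage matrix markers were present in every group, with summed levels of 8195 to 10838 normalized reads in healthy, 760 to 9998 in untreated and 10021 to 28093 in CLCS libraries. Transcripts that most cells hold in abundance were low, with 10 to 128 reads for ACTB and 15 to 91 for GAPDH. Among the 13 mitochondrial protein genes, ND6, which lies on the other strand from the rest, took 86.0% to 94.4% of the reads. The strand setting of the count is not given in the sources used here, so reads of a gene and reads of an antisense partner cannot be told apart. All levels below are normalized reads, the read count divided by the size factor of its library. Fold changes are on the scale of log2(normalized reads + 1), which understates the change of a gene with few reads.

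Taken over the 6 injured libraries, COL4A1 was 5.16-fold and COL4A2 3.52-fold higher than in healthy cartilage, and both rose past the threshold. For each kind of defect alone, COL4A2 in CLCS defects was the single call. Every injured library had more COL4A1 and COL4A2 and less HMCN1 than every healthy library, although HMCN1 had too few reads for the filter and was not called. COL15A1 and NID2 overlapped between all groups. Between CLCS and untreated defects, all 5 genes overlapped.

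**Figure D1:**
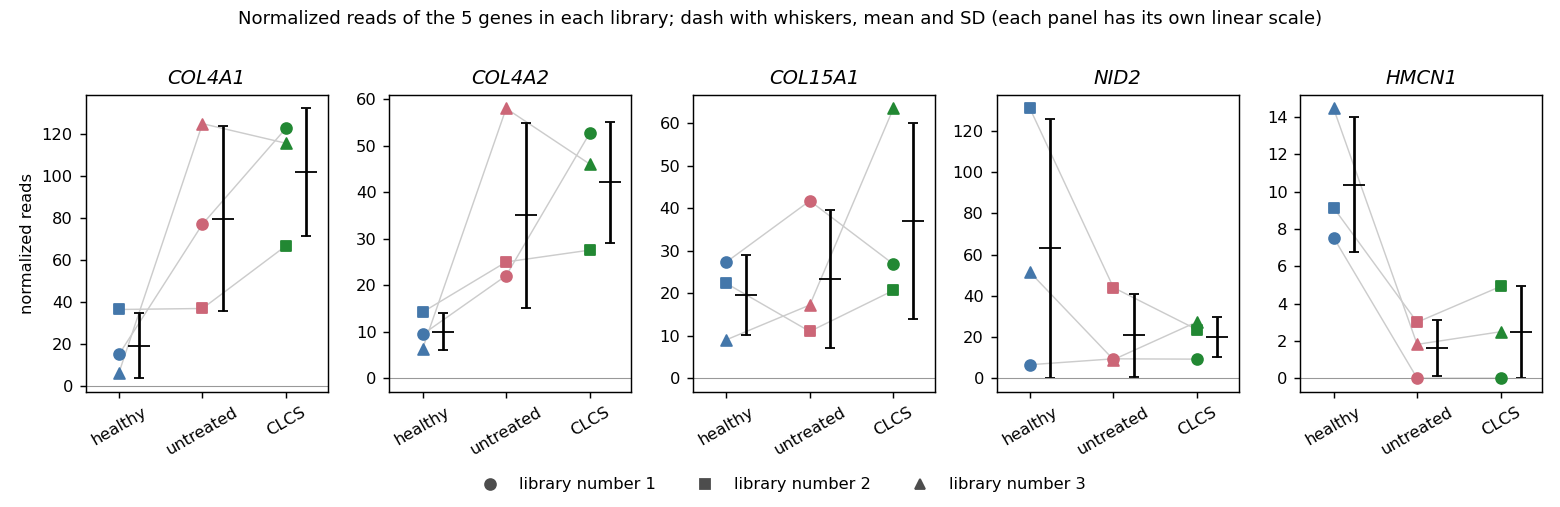
Normalized reads (vertical axis, own linear scale per panel) of the 5 genes in the healthy, untreated and CLCS libraries, with grey lines joining libraries that carry the same number and a dash with whiskers for mean and SD of the 3 libraries of a group. For COL4A1 and COL4A2 all injured libraries lie above the healthy ones, the closest being untreated 2 at 37.0 against healthy 2 at 36.5 for COL4A1, and for HMCN1 they all lie below.

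COL4A1 (ENSOCUG00000013232) was measured at 15.1, 36.5 and 6.32 normalized reads in healthy libraries 1, 2 and 3. In untreated defects it stood at 77.2, 37.0 and 125, and in CLCS defects at 123, 66.9 and 116. No healthy library reached an injured one, although the margin was narrow at 1 point, where untreated 2 had 37 reads and healthy 2 had 36. The means were 19.3 ± 15.5 in healthy, 79.8 ± 44.1 in untreated and 102 ± 30.5 in CLCS libraries (SD, n = 3 each).

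COL4A2 (ENSOCUG00000013276) encodes the chain that joins 2 chains of COL4A1 in the most widespread collagen IV molecule. It was at 9.42, 14.2 and 6.32 normalized reads in healthy libraries, at 22.1, 25.0 and 58.0 in untreated and at 52.7, 27.6 and 46.1 in CLCS defects. The lowest injured library was thus above the highest healthy library. Group means were 9.98 ± 3.97, 35.0 ± 19.97 and 42.1 ± 13.0 (SD, n = 3 each), and untreated 3 was the highest injured library for either gene. Untreated 3 stood apart from the other libraries, with 505 reads of COL2A1, the main cartilage collagen, against 4061 to 20508 elsewhere. A single gene, the same in every library, took 1.49% of the reads in untreated 3, against 17.8% to 49.4% elsewhere. Without untreated 3, the log2 fold changes over the injured libraries were 2.25 for COL4A1 and 1.68 for COL4A2, with adjusted p of 0.039 and 0.027 in limma.

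In untreated against healthy cartilage, the log2 fold change of COL4A1 was 2.14 with a standard error of 0.68, and that of COL4A2 was 1.64 with a standard error of 0.46. Neither passed the threshold of an adjusted p of 0.05 in limma, with adjusted p of 0.162 and 0.127. None of the 4 genes tested was called there, where 2.55% of all genes tested were called. DESeq2 on the same reads did call both, with adjusted p of 0.037 for COL4A1 and 0.040 for COL4A2. Before adjustment the limma p-values were 0.015 and 0.0088, and 16.6% of all genes tested had an unadjusted p under 0.05.

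In CLCS against healthy cartilage, COL4A2 rose by 1.99 on the log2 scale with a standard error of 0.39 and an adjusted p of 0.044 in limma. COL4A1 had the larger log2 fold change of 2.60, with a standard error of 0.59, and missed the threshold with an adjusted p of 0.068. COL4A2 was thus the single gene called out of 4 tested, where 3.16% of all genes tested were called. With the library number as a block in the paired fit, COL4A2 was no longer called, at an adjusted p of 0.056, and the count of called genes fell to 0. Both genes were called by DESeq2 and by edgeR, although COL4A1 stood at an adjusted p of 0.0499 in edgeR. Before adjustment the limma p-values were 0.0025 for COL4A1 and 0.0011 for COL4A2, and 17.5% of all genes tested were under 0.05.

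Over the 6 injured libraries, COL4A1 rose by 2.37 on the log2 scale (standard error 0.53, 95% interval 1.20 to 3.54, adjusted p of 0.023 in limma). COL4A2 rose by 1.81 (standard error 0.38, 95% interval 0.97 to 2.66, adjusted p of 0.017). This made 2 of the 4 genes tested, where 7.53% of all genes tested were called and 21.8% had an unadjusted p under 0.05. Leaving out healthy 1 or healthy 3 ended both calls, with adjusted p of 0.071 and 0.096 for COL4A1 and of 0.058 and 0.082 for COL4A2. Without any 1 of the other 7 libraries both were still called. With 1 library left out, the log2 fold change of COL4A1 ranged from 1.79 without healthy 3 to 2.96 without healthy 2, and that of COL4A2 from 1.55 to 2.08. The exact two-sided permutation test over the 9 libraries gave p = 0.0238 for either gene, which is the smallest value that 6 libraries against 3 can give. The 3 comparisons with healthy cartilage share the same healthy libraries, so they do not stand as separate evidence.

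Both genes passed the filter on low counts largely through the injured libraries, since COL4A1 had 7 to 36 and COL4A2 had 7 to 14 reads in healthy cartilage. Counting the genes whose libraries did not overlap between groups, 3 of the 5 stood apart in untreated against healthy cartilage and 2 of the 4 that passed the filter, where 22.0% of all genes tested stood apart. The same counts, 3 of 5 and 2 of 4, were found in CLCS against healthy cartilage, where the share over all genes tested was 24.2%, and in injured against healthy cartilage, where it was 13.5%. With 3 libraries against 3, an exact permutation test cannot go below p = 0.1, the value obtained for COL4A1, COL4A2 and HMCN1 in either kind of defect.

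**Figure D2:**
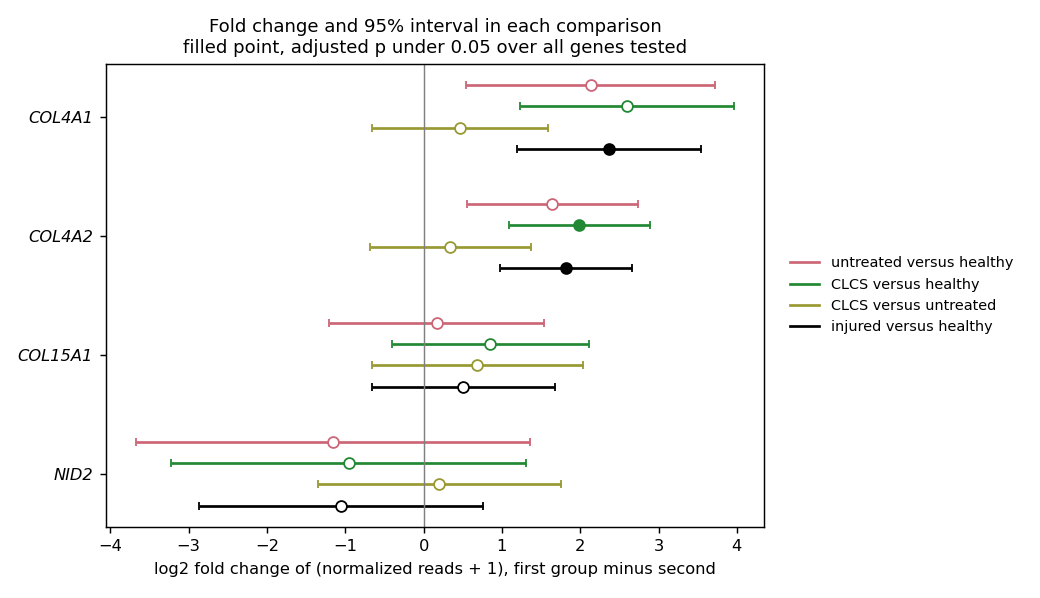
Log2 fold change (horizontal axis, normalized reads plus 1) with its 95% interval from limma for the 4 genes tested, 1 line per comparison, filled where the adjusted p over all genes tested was under 0.05. The filled points are COL4A2 in CLCS against healthy at 1.99, and COL4A1 at 2.37 and COL4A2 at 1.81 in injured against healthy cartilage, and all intervals of CLCS against untreated defects span 0.

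CLCS and untreated defects were not separated by any of these genes. COL4A1 differed by 0.46 on the log2 scale with a 95% interval of -0.66 to 1.59, and COL4A2 by 0.34 with an interval of -0.69 to 1.37. The upper ends of these intervals lie well above 0, so the libraries do not show that the scaffold left both genes as in empty defects. In limma, 0% of all genes tested were called in this comparison, with 95 genes or 2.90% at an unadjusted p under 0.05, and edgeR and DESeq2 also called 0. Of all genes tested, 8.34% had libraries that did not overlap, and none of the 5 genes did. By mean level the order was healthy, untreated, CLCS for COL4A1 and for COL4A2, and the neighbours untreated and CLCS did not differ beyond their spread.

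COL4A1 and COL4A2 lie within 1000 bases of each other in the RefSeq annotation of the rabbit assembly mOryCun1.1, and they are known as a head-to-head pair with a shared promoter region. Whether both moved in proportion was examined by the ratio of their reads within a library, in which the size factor cancels. The ratio was 1.6, 2.57 and 1 in healthy, 3.5, 1.48 and 2.16 in untreated and 2.33, 2.43 and 2.51 in CLCS libraries. As transcript lengths were not used, the ratio is read between libraries and not as a level of one chain against the other.

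All CLCS libraries lay close together, with a mean ratio of 2.43 ± 0.09, whereas healthy libraries gave 1.72 ± 0.79 and untreated ones 2.38 ± 1.03 (SD, n = 3 each). The log2 ratio of injured minus healthy libraries was 0.54, with p = 0.262 in the exact two-sided permutation test. For the pairs of groups, where the exact permutation p cannot go below 0.1, it was 0.5 for untreated and 0.4 for CLCS against healthy, and 0.7 for CLCS against untreated. With 7 reads of each gene in healthy 3, its 95% counting interval reached from 0.30 to 3.34, which spans every other ratio but that of untreated 1.

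**Figure D3:**
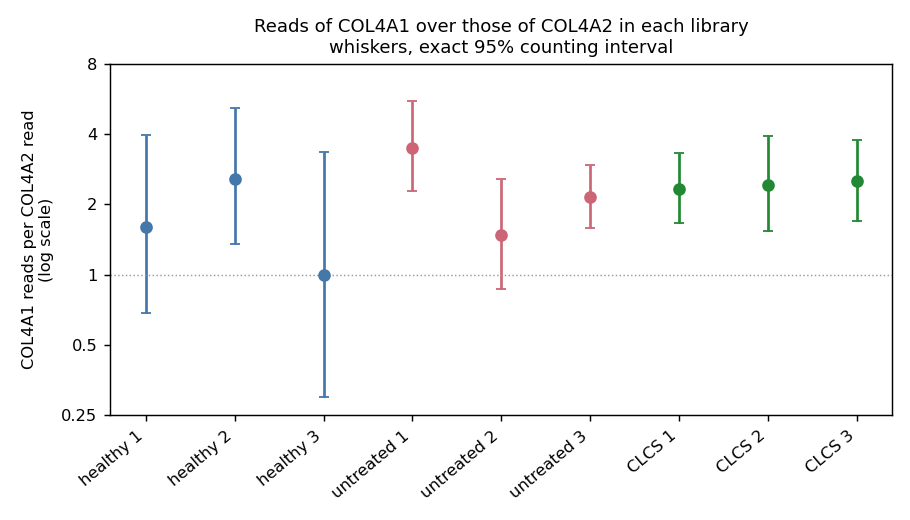
Reads of COL4A1 per read of COL4A2 (vertical axis, log scale) in each of the 9 libraries, with exact 95% intervals that cover counting error only. The intervals overlap between all 3 groups, and that of healthy 3, from 0.30 to 3.34, is the widest.

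None of the other collagen IV chains was called in any comparison. COL4A3, COL4A4 and COL4A5 form the collagen IV of kidney, lung and inner ear basement membranes, and each passed the filter on low counts. COL4A5 (ENSOCUG00000010874) stood at 50.9, 58.9 and 54.2 normalized reads in healthy, 40.2, 54.0 and 49.9 in untreated and 41.3, 58.1 and 47.3 in CLCS libraries. The groups overlap, and its log2 fold change in injured against healthy cartilage was -0.18 with a 95% interval of -0.65 to 0.29.

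COL4A3 ranged from 11.7 to 16.2 normalized reads in healthy and from 5.17 to 26.0 in injured libraries, with a log2 fold change of 0.06 (95% interval -0.89 to 1.005). COL4A4 ranged from 31.5 to 81.0 in healthy and from 21.2 to 64.6 in injured libraries, with -0.42 (95% interval -1.33 to 0.48). COL4A6, the head-to-head partner of COL4A5, had too few reads to be tested.

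As a description with no test, the reads of COL4A1 and COL4A2 were set against those of the other 3 chains within each library, in ratios chosen after the values were seen. Reads of COL4A1 per read of COL4A5 lay between 0.117 and 0.621 in healthy and between 0.685 and 2.98 in injured libraries. Reads of COL4A2 per read of COL4A5 lay between 0.117 and 0.241 in healthy and between 0.463 and 1.27 in injured libraries. The groups did not overlap in either ratio, nor in that of COL4A2 over COL4A3. They overlapped for COL4A1 over COL4A3 and for either gene over COL4A4. The mean log2 ratios of the 6 pairs were 1.88 to 2.89 higher in injured cartilage.

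COL15A1 (ENSOCUG00000016236) varied more within groups than between them. It was measured at 27.3, 22.3 and 9.03 normalized reads in healthy libraries, at 41.8, 11.0 and 17.2 in untreated and at 26.9, 20.7 and 63.5 in CLCS defects. Only CLCS 3 and untreated 1 exceeded the highest healthy library. Means were 19.6 ± 9.45, 23.3 ± 16.3 and 37.0 ± 23.1 (SD, n = 3 each).

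The log2 fold changes of COL15A1 were 0.17 in untreated and 0.85 in CLCS against healthy cartilage, with 95% intervals of -1.20 to 1.53 and -0.41 to 2.11. The first turned negative without untreated 1, at -0.35, and without healthy 3, at -0.29. CLCS minus untreated was 0.69 (95% interval -0.66 to 2.04), and injured minus healthy was 0.51 (95% interval -0.66 to 1.68). By mean level the order was healthy, untreated, CLCS, and no neighbours in it differed beyond their spread.

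NID2 (ENSOCUG00000003689) was the most variable of the genes in healthy cartilage. Healthy libraries held 6.60, 131 and 51.5 normalized reads, a 19.8-fold range. Untreated defects held 9.45, 44.0 and 9.07, and CLCS defects 9.30, 23.6 and 27.4. Healthy 1 was thus lower than every injured library, while healthy 2 and 3 were higher than all of them.

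Mean NID2 levels were 63.0 ± 63.0 in healthy, 20.8 ± 20.1 in untreated and 20.1 ± 9.54 in CLCS libraries (SD, n = 3 each). The log2 fold change was -1.16 in untreated (95% interval -3.68 to 1.36) and -0.96 in CLCS against healthy cartilage (95% interval -3.23 to 1.31). Leaving out healthy 1 moved them to -2.31 and -2.11, and leaving out healthy 2 moved them to -0.25 and -0.05, all without a call. CLCS minus untreated was 0.20 (95% interval -1.35 to 1.75), and its sign depended on the tool, with -0.01 in edgeR and -0.05 in DESeq2. Library 1 was the lowest of its group in healthy and CLCS tissue, and library 2 the highest in healthy and untreated tissue. With library number as a block, the standard error in untreated against healthy cartilage fell from 1.07 to 0.58 and the adjusted p from 0.683 to 0.392. Markers of skeletal muscle and nerve sheath, tissues whose cells carry basement membranes, were also spread in healthy cartilage. The 8 of them below the filter on low counts summed to 18.8, 41.6 and 55.1 normalized reads in healthy libraries 1, 2 and 3 and to 8.16 to 16.2 in injured libraries, and healthy 1 was the lowest healthy library both for them and for NID2. Their part in the level of NID2 was not tested. NID2 overlaps a pseudogene in the mOryCun1.1 annotation and has RTRAF within 1000 bases, so its count is uncertain to that extent.

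HMCN1 (ENSOCUG00000013453) went the other way from the collagen IV pair, at low depth. Healthy libraries held 8, 9 and 16 reads, untreated ones 0, 3 and 2, and CLCS ones 0, 5 and 2. Every injured library was below every healthy library. In normalized reads, the means were 10.4 ± 3.62, 1.60 ± 1.51 and 2.47 ± 2.46 (SD, n = 3 each). The 2 libraries without a read, untreated 1 and CLCS 1, allow a level of up to 2.36 and 3.10 normalized reads, which is the value of 3 reads in each.

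Summed over libraries and scaled by size factor, HMCN1 was 7.06 times as high in healthy cartilage as in untreated defects, with a 95% interval of 2.74 to 23.2 from 33 reads against 5. Against CLCS defects the ratio was 4.17 (95% interval 1.81 to 11.2, 33 reads against 7), and against all injured libraries 5.37 (95% interval 2.70 to 11.4, 33 reads against 12). These intervals cover counting error only. HMCN1 did not pass the filter on low counts in any comparison. When all genes were tested without that filter, limma gave it a log2 fold change of -2.30 in untreated and -2.01 in CLCS against healthy cartilage, with adjusted p of 0.132 and 0.280, and of -2.15 in injured cartilage with 0.090. The exact permutation p over the 9 libraries was 0.0238, the smallest possible, and CLCS and untreated defects overlapped. In the mOryCun1.1 annotation, HMCN1 overlaps a long noncoding RNA gene, a pseudogene and a protein-coding gene.

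Other components of basement membranes were read from gene lists, described by counts beside all genes tested. Of 12 laminin chains, which form the second network of the sheet, 7 were listed and 4 tested in injured against healthy cartilage, and 0 were called. Their median log2 fold change was 0.33, against -0.04 over all genes tested, of which 7.53% were called. LAMA4, a chain of endothelial, muscle and fat cell basement membranes, had 0.59 (95% interval -0.74 to 1.92), and LAMB2 had 0.06 (95% interval -0.85 to 0.98). LAMA5, LAMC1, NID1, AGRN and COL18A1 were not analysed here.

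Of 32 further basement membrane genes, 23 were listed and 10 tested, with 1 lower, 0 higher and a median of -0.42. Over all genes tested in injured against healthy cartilage, 7.53% were called. SMOC2, a secreted calcium-binding protein related to SPARC, was the called gene and fell by 1.74 on the log2 scale (standard error 0.41, adjusted p of 0.030 in limma). Its levels were 60.3, 160 and 61.4 normalized reads in healthy, 17.3, 27.0 and 20.9 in untreated and 18.6, 22.6 and 52.3 in CLCS libraries. All injured libraries were below the healthy ones, where 13.5% of all genes tested had groups that did not overlap. HSPG2, which encodes perlecan, had a log2 fold change of 0.05 (95% interval -0.86 to 0.95), and SPARC had -0.09 (95% interval -1.09 to 0.91).

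Over all genes tested in injured against healthy cartilage, 7.53% were called and the median was -0.04. Of 21 genes for collagen IV folding and secretion, 17 were listed and 10 tested, and 0 were called, with a median of -0.11. PPIB, a prolyl isomerase of the endoplasmic reticulum, had -0.17 (95% interval -0.73 to 0.40), and PLOD2, a lysyl hydroxylase, had -1.04 (95% interval -2.15 to 0.08). Of 15 receptors for basement membranes, 14 were listed and 4 tested, with 0 called and a median of 0.17. ITGB4, the beta chain of the laminin receptor of hemidesmosomes, had -0.40 (95% interval -1.74 to 0.93), and SDC2, a cell surface proteoglycan, had -0.12 (95% interval -1.26 to 1.01).

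**Figure D4:**
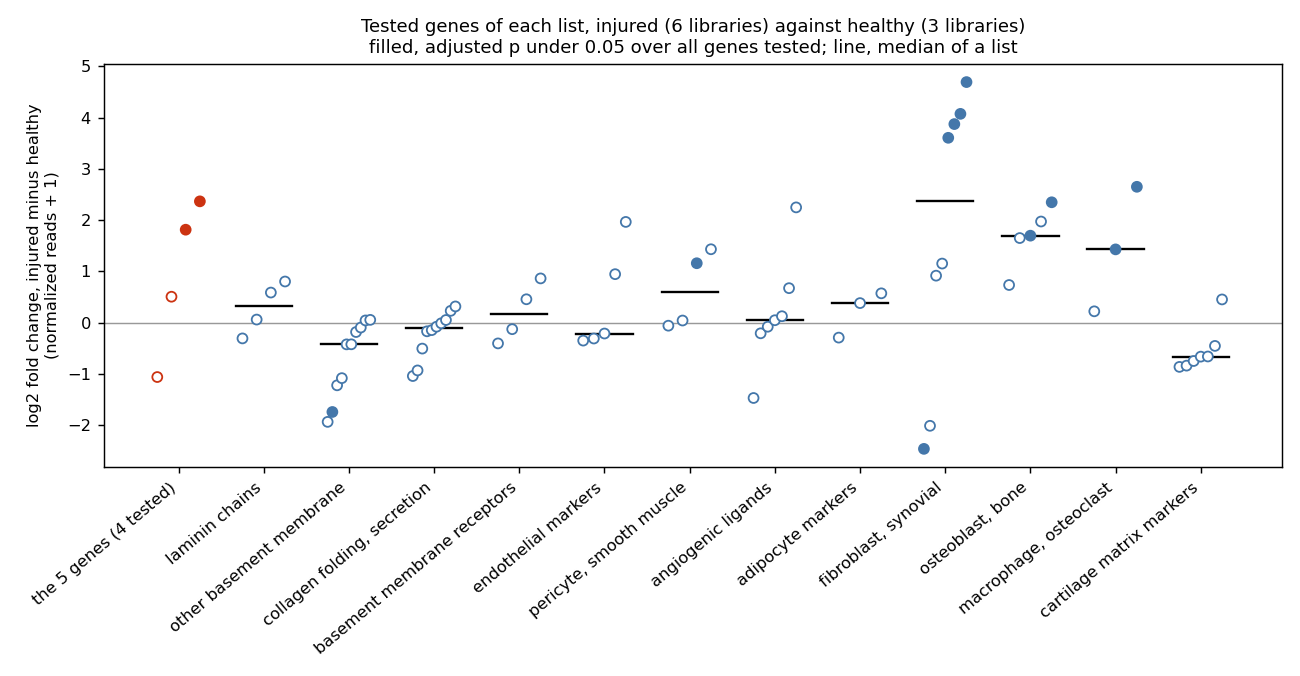
Log2 fold change in injured (6 libraries) against healthy (3 libraries) cartilage (vertical axis, normalized reads plus 1) for the tested genes of each list, filled where the adjusted p over all genes tested was under 0.05, with a line at the median of a list. The called genes lie in the collagen IV pair, with 1.81 and 2.37, in the fibroblast, bone and macrophage lists, and as single genes, SMOC2 at -1.74 and MYH11 at 1.16, in the other basement membrane and the pericyte lists.

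Cells that make vessel basement membranes were followed by markers. Of 28 endothelial markers 22 were listed, and 18 of those had fewer than 20 reads in every library. The 5 tested in injured against healthy cartilage gave 0 calls and a median of -0.21. Over all genes tested, 7.53% were called and the median was -0.04, so 0 calls among 5 genes is near that share. The summed level of the list was 1493 to 2094 normalized reads in healthy, 1486 to 2424 in untreated and 1693 to 2278 in CLCS libraries. MMRN2 with 814 to 1412 reads and STAB1 with 265 to 1139 reads held nearly all of it. MMRN2, a matrix protein of endothelium, had a log2 fold change of -0.21 (95% interval -0.72 to 0.30), and STAB1, a scavenger receptor of sinusoidal endothelium and macrophages, had 0.95 (adjusted p of 0.142 in limma).

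The genes that define endothelium more strictly were at or near 0. PECAM1, CDH5, KDR, TEK, TIE1, FLT1, VWF and EMCN, named after their values were seen, held 6, 2 and 2 reads together in healthy libraries, 15, 8 and 6 in untreated and 18, 10 and 5 in CLCS libraries. PECAM1, the adhesion molecule CD31, had 0 reads in all healthy libraries and 0 to 4 in injured ones. PLVAP, a protein of the diaphragms of fenestrated endothelium, had 0, 5 and 2 reads in healthy, 7, 11 and 18 in untreated and 8, 13 and 4 in CLCS libraries. Its log2 fold change in injured cartilage was 1.97 (standard error 0.54) with an adjusted p of 0.053 in limma, which was not a call, and healthy 2 overlapped the lowest CLCS library. PLVAP passed the filter on low counts only through the injured libraries, and it did not pass in either kind of defect alone against healthy cartilage. Of the 5 endothelial markers tested, 2 had a log2 fold change above 0 and 3 below. Among them, ESAM had 52, 68 and 58 reads in healthy, 54, 64 and 39 in untreated and 45, 41 and 38 in CLCS libraries. STAB2 had 53, 53 and 66 reads in healthy, 54, 60 and 46 in untreated and 33, 40 and 33 in CLCS libraries. The part of endothelial cells in the levels of COL4A1 and COL4A2 was not tested.

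**Figure D5:**
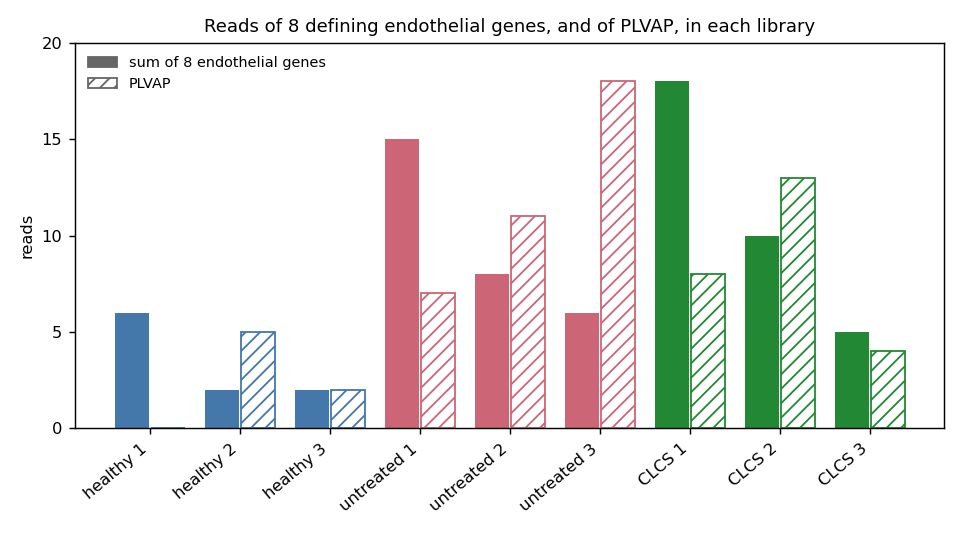
Reads (vertical axis, linear) in each library for the sum of 8 defining endothelial genes (solid bars) and for PLVAP (hatched bars). The sum is 2 to 6 reads in healthy and 5 to 18 in injured libraries, and no library exceeds 18 reads for either.

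Of 15 pericyte and smooth muscle markers, 11 were listed and 4 tested, with 1 higher, 0 lower and a median of 0.60. The share called over all genes tested was 7.53%. MYH11, the smooth muscle myosin heavy chain, rose by 1.16 on the log2 scale (standard error 0.26, adjusted p of 0.023 in limma). It was at 320, 403 and 312 normalized reads in healthy, 559, 625 and 908 in untreated and 799, 750 and 1073 in CLCS libraries. Healthy and injured libraries did not overlap, as was so for 13.5% of all genes tested. However, SMTN, a smooth muscle cytoskeletal gene with 2029 to 3395 reads, had 0.04 (95% interval -0.62 to 0.71). The pericyte marker RGS5 and smooth muscle actin ACTA2 had at most 2 reads in a library. The list summed to 2367 to 3759 normalized reads in healthy, 2446 to 3634 in untreated and 3188 to 5347 in CLCS libraries.

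Of 24 angiogenic ligands and regulators, 16 were listed and 7 tested, with 0 called and a median of 0.05. Over all genes tested in injured against healthy cartilage, 7.53% were called and the median was -0.04. ANGPT2, a ligand of the receptor TEK, had -0.08 (95% interval -0.55 to 0.39), and SERPINF1, an inhibitor of vessel growth, had 0.68 with an adjusted p of 0.061 in limma. Adipocyte markers gave 0 calls among 3 tested of 6 listed, with a median of 0.38. Cartilage matrix markers gave 0 calls among 7 tested of 11 listed, and the kinds of defect differed in their medians. The median was -1.19 in untreated against healthy cartilage, with 7 of 7 below 0, and 0.07 in CLCS against healthy cartilage, with 4 above and 3 below 0. It was 1.37 in CLCS against untreated defects, with 7 of 7 above 0. The median over all genes tested there was -0.004, and 0% were called. The list summed to 9998, 5080 and 760 normalized reads in untreated 1, 2 and 3, and to 10021 to 28093 in CLCS libraries. The part of untreated 3 in these medians was not tested.

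Several markers of connective tissue, bone and macrophages changed in the libraries in which COL4A1 and COL4A2 were higher. Of 12 fibroblast and synovial markers listed, 8 were tested in injured against healthy cartilage, 4 were higher and 1 lower, with a median of 2.38, where 7.53% of all genes tested were called. Some of these markers passed the filter on low counts only through the injured libraries, such as LUM with 1, 0 and 0 reads and POSTN with 7, 1 and 0 reads in healthy cartilage, and CSF1R below had 5, 7 and 2. POSTN, a matricellular protein of fibroblasts and periosteum, rose by 4.69 on the log2 scale (standard error 0.54, adjusted p of 0.0013 in limma), and COL1A1, a chain of collagen I, by 3.87 (standard error 0.52, adjusted p of 0.0030). COL1A2, the other chain of collagen I, and LUM, lumican, were also higher, and PDPN, the membrane glycoprotein podoplanin, was lower. The list summed to 510 to 1067 normalized reads in healthy, 1712 to 4893 in untreated and 2430 to 3967 in CLCS libraries, with no overlap between healthy and injured tissue.

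Of 9 bone markers listed, 5 were tested and 2, the osteoblast matrix proteins IBSP and BGLAP, were higher, with 0 lower and a median of 1.70. Their list summed to 308 to 921 normalized reads in healthy, 986 to 2985 in untreated and 1864 to 2430 in CLCS libraries. Of 12 macrophage and osteoclast markers listed, 3 were tested and 2, the osteoclast protease CTSK and the macrophage receptor CSF1R, were higher, with 0 lower and a median of 1.43. That list summed to 19.0 to 45.2 normalized reads in healthy, 111 to 135 in untreated and 48.6 to 107 in CLCS libraries. Defects and healthy cartilage thus differed in several of these markers and not in all, and the part of these markers in the levels of COL4A1 and COL4A2 was not tested.

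The pattern of each gene over the 9 libraries was compared with that of 2256 genes by the root mean square difference of centred log2 levels, a description without a test. Nearest to COL4A1 was COL4A2, at 0.50, followed by UBE2O, a ubiquitin-conjugating enzyme, at 0.60 and MMP19, a matrix metalloproteinase, at 0.61. The median over all genes was 1.42. Nearest to COL4A2 were UBA7, the activating enzyme of the ubiquitin-like protein ISG15, at 0.28, SDS, serine dehydratase, at 0.33 and NCAPH2, a condensin subunit, at 0.33. COL4A1 was 29th in that order, and the median over all genes was 1.08. UBA7 was measured at 82.1 ± 24.2 normalized reads in the healthy group, 293 ± 131 in the untreated group and 301 ± 58.8 in the CLCS group (SD, n = 3 each).

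COL15A1 was nearest to MID2, an E3 ubiquitin ligase, at 0.31, to BGN, the proteoglycan biglycan, at 0.46 and to NCL, nucleolin, at 0.48, with a median over all genes of 0.93. MID2 was measured at 60.0 ± 30.1 normalized reads in the healthy group, 73.2 ± 34.0 in the untreated group and 142 ± 81.6 in the CLCS group (SD, n = 3 each). NID2 was nearest to UBE2T, a ubiquitin-conjugating enzyme of DNA repair, at 0.55, then to TEX9 at 0.72 and NTAN1 at 0.73, with a median of 1.35. UBE2T was measured at 41.7 ± 26.7 normalized reads in the healthy group, 11.4 ± 11.0 in the untreated group and 13.5 ± 6.52 in the CLCS group (SD, n = 3 each). Seen from NID2, COL4A1 was 2199th and COL4A2 2115th of the genes compared, so the linker and the collagen IV pair had unlike profiles. HMCN1 was too low for this comparison.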

How the data were processed

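PolyA-selected RNA of 9 rabbit cartilage samples was prepared with a TruSeq kit by the authors, who mapped read pairs to oryCun2.0 (TopHat and Bowtie), counted them per gene with eXpress and normalized with DESeq2. Versions, annotation release and strand setting are not given in the sources used here. As deposited, a value is the signal of a gene, the read count divided by the DESeq2 size factor of the library. Each value is a whole multiple of the value of 1 read of its library, and whole reads were recovered for 100% of values within 0.01 reads. The healthy columns, repeated in both tables, were used once. Recovered totals were 724986 to 1226408 reads per library for the 14870 genes, which limits the precision of genes with few reads. Groups and replicate numbers came from the labels.

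Log2(value + 1) was tested with limma 3.58.1 (R 4.3.3) over the genes kept by filterByExpr of edgeR 4.0.16 (minimum count 10), with Benjamini-Hochberg adjustment over all genes tested and calls below an adjusted p of 0.05. Untreated, CLCS and healthy libraries were compared in pairs (6 libraries each), and the 6 injured with the 3 healthy libraries. This kept 3496 genes for untreated against healthy cartilage, 3294 for CLCS against healthy cartilage, 3275 for CLCS against untreated defects and 3812 for injured against healthy cartilage. Of the 5 genes, 4 passed in each comparison. Single values were tested by exact two-sided permutation. Ratios of counts have exact 95% intervals for counting error only, and a count of 0 was given the limit of 3 reads. The fit was tested on simulated data.

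Alternatives were edgeR and DESeq2 1.42.0 on recovered reads, TMM normalization, pseudocounts of 0.5 and 5, no filter, a replicate block, a fit to all 9 libraries and leaving out each library. Samples with the same number had deviations from their group means that correlated across genes at 0.28, 0.14 and 0.19 for CLCS and healthy, 0.25, 0.33 and 0.30 for CLCS and untreated, and 0.29, 0.13 and -0.04 for untreated and healthy tissue. All were over 0.1 where CLCS was involved. The main fits took no pairs, and equal numbers were paired only in the replicate block, on the evidence of the data alone. The labels do not say that libraries with equal numbers came from the same rabbit.

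The 5 genes, the gene lists and the tests were chosen with earlier results of these data known. Named besides the 5 were called genes of a list, the 2 highest tested genes of each list and the 3 genes nearest in profile. HSPG2, COL4A3, COL4A4, PLVAP, ESAM, STAB2, the 8 endothelial genes, RGS5, ACTA2, ACTB, GAPDH and ND6 were named after their values were seen. Gene neighbours came from RefSeq for mOryCun1.1, in which all 5 were matched. Its coordinates were not used, as the build differs. Of the skeletal muscle and nerve sheath markers, only the genes below the filter are reported here.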

Additional observations from a re-analysis of the deposited data

How the results depend on the processing

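The higher levels of COL4A1 and COL4A2 in injured tissue kept their direction under every alternative run, and their calls depended on the setting. DESeq2 called 2 of the 5 genes in untreated against healthy cartilage, where limma called 0. In CLCS against healthy cartilage, where COL4A2 was called alone, the count was 2 with a pseudocount of 5, with edgeR and with DESeq2, and 0 without a filter on low counts and 0 with the replicate block. The replicate block, the paired fit, changed no other call of the 5 genes. When 1 library was left out, the count ranged from 0 to 2 in CLCS against healthy cartilage, from 0 (without healthy 1 or healthy 3) to 2 in injured against healthy cartilage, and stayed at 0 in the other comparisons. In CLCS against healthy cartilage, leaving out healthy 2 added COL4A1, and leaving out any 1 of the other 5 libraries ended the call of COL4A2.

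Over all genes tested, DESeq2 called 271 genes in untreated, 253 in CLCS and 491 in injured against healthy cartilage, where limma called 89, 104 and 287. Without a filter, where many more genes were tested, limma called 20 and 13 in the first 2 comparisons. A fit to all 9 libraries called 173 in untreated against healthy cartilage. Leaving out 1 library, so that fewer samples were tested, gave 2 to 7, 0 to 81 and 130 to 262 genes in these 3 comparisons.

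Signs turned only for values without a call. NID2 in CLCS minus untreated was -0.014 with edgeR, -0.046 with DESeq2 and -0.17 to 0.91 with 1 library left out. COL15A1 in untreated minus healthy was -0.35 to 0.57 with 1 library left out, and the log2 ratio of COL4A1 to COL4A2 in CLCS minus untreated was -0.18 to 0.44. The causes were not tested. The log2 ratios to the other collagen IV chains, an alternative chosen after seeing the data, kept their direction with 0.5 reads added and with each library left out. Counts of 7 to 36 reads for COL4A1 and COL4A2 in healthy cartilage, and of 0 to 16 for HMCN1, limit the precision.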
